A study of Homo sapiens with 14 samples.

Results

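In the miRNA count tables of A549 cells, 8 of the 2588 entries of each table were examined because each of these mature miRNAs is made from several hairpins of identical or almost identical sequence. They are hsa-miR-1244, hsa-miR-3179, hsa-miR-3180-3p, hsa-miR-3180-5p, hsa-miR-6511a-3p, hsa-miR-6511a-5p, hsa-miR-6511b-3p and hsa-miR-6511b-5p, written below without the species prefix. The members were listed with their counts and their enrichments already known, so their levels, their multiples and their enrichments are given as descriptions. Where a member is said to be called, its adjusted p in the fit over all miRNAs was under 0.05, which describes the fit and is no independent test of a member chosen on the same contrast. A549 is a human lung adenocarcinoma line, and all 14 libraries were made from its small RNA, with no genetic change named in the labels. BoRed-seq finds N7-methylguanosine (m7G), a guanine that carries a methyl group, by reducing it with NaBH4 in the presence of free m7GTP, cleaving off the base at low pH and pulling down the abasic RNA with a biotin-coupled aldehyde reactive probe. It had 2 libraries from reduced RNA (Red) and 2 from RNA that had met acid-quenched NaBH4 and was otherwise handled alike (Ctrl). m7G-RIP-seq had 5 libraries of RNA immunoprecipitated with an antibody against m7G after heat denaturation (IP) and 5 of the RNA before immunoprecipitation (Input).

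A miRNA is cut from a hairpin in a longer transcript, first by Drosha in the nucleus and then by Dicer in the cytoplasm, and either arm of the hairpin, 5p or 3p, can be loaded into Argonaute. The seed, the stretch near the 5′ end of the mature miRNA, sets most of its targets. Segmental duplications and processed pseudogenes can copy a hairpin to other loci, and a read from one copy then fits every other copy equally well. Which copy made the molecule cannot be told from the read.

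The mature sequences below (RefSeq, GRCh38.p14) are shown because several of them overlap, with the seed, bases 2 to 8, in capitals.
miR-1244: aAGUAGUUgguuuguaugagaugguu
miR-3179: aGAAGGGGugaaauuuaaacgu
miR-3180-3p: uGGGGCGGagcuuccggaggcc
miR-3180: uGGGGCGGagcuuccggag
miR-3180-5p: cUUCCAGAcgcuccgccccacgucg
miR-6511a-5p: cAGGCAGAaguggggcugacagg
miR-6511b-5p: cUGCAGGCagaaguggggcugaca
miR-6511a-3p: cCUCACCAucccuucugccugc
miR-6511b-3p: cCUCACCAccccuucugccugca
The table also lists miR-3180, which is the first 19 bases of miR-3180-3p and shares its seed GGGGCGG. miR-6511a-5p starts 3 bases into miR-6511b-5p, and the 21 bases they share have 0 substitutions, but the shifted start gives them different seeds, AGGCAGA and UGCAGGC. The 3p arms of miR-6511a and miR-6511b share the seed CUCACCA and differ by U9C, counted from 1 at the 5′ end of miR-6511a-3p, with 1 further base at the 3′ end of miR-6511b-3p. The run GGGG stands in miR-3179, miR-3180-3p, miR-6511a-5p and miR-6511b-5p and in 11.8% of the 2281 table entries whose mature sequence was found.

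The members come from 17 hairpins, 4 each for miR-1244, miR-3179 and miR-6511a, 3 for miR-3180-3p and miR-3180-5p, and 2 for miR-6511b. The 2 longer hairpins MIR3180-4 and MIR3180-5, listed for miR-3180, bring the total to 19. The 4 copies of the miR-1244 hairpin had 1 distinct sequence, as did the 4 of miR-3179 and the 4 of miR-6511a, and the copies of miR-3180-3p and of miR-6511b each had 2.

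The miR-1244 hairpins follow prothymosin alpha (PTMA), a gene for a small acidic nuclear protein that has many processed copies. MIR1244-1 lies on the plus strand of chromosome 2 (231713314 to 231713398, hg38) and all 85 bases fall in the 3′ UTR of PTMA. MIR1244-2 on chromosome 5 (118974586 to 118974670) lies in an intron of DTWD2, on the opposite strand. Its mature sequence lies 517 bases downstream of the pseudogene PTMAP2. MIR1244-3 and MIR1244-4 are both on chromosome 12, with their mature sequences 488 bases downstream of PTMAP4 and 516 bases downstream of PTMAP9. The mature sequence matched 8 sites on the primary chromosomes exactly, 4 of them outside any listed miR-1244 hairpin. Of those 4, the sites on chromosomes 3, 7 and 20 lay 488, 1075 and 592 bases downstream of PTMAP8, PTMAP10 and PTMAP3, and the site on chromosome 14, in an intron of TRIP11 on the opposite strand, had no PTMA gene within 5000 bases upstream.

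The other 15 hairpins are all on chromosome 16, and 9 of them stand in 3 units of the same order. MIR3179-1 (14901508 to 14901591, in an exon of a lncRNA) is followed on the plus strand by MIR3180-1 and MIR6511A1, which start 9712 and 24429 bases from it. MIR3179-2 (16300159 to 16300242) lies in the 3′ UTR of NOMO3, and MIR3180-2 and MIR6511A2 follow at 9720 and 24429 bases. The third unit runs on the minus strand from MIR3179-3 (18411894 to 18411977, intergenic), with MIR3180-3 at 9706 bases and MIR6511A4 at 67898 bases. An exact copy of both mature arms of miR-6511a in an intron of the pseudogene PKD1P5, 28676 bases from MIR3179-3, has no hairpin of its own in the annotation. Each of MIR6511A1 to MIR6511A4 lies in an intron of a pseudogene of PKD1, the polycystin 1 gene, whereas MIR6511B1 (2106669 to 2106753) lies in PKD1 itself, where 9 of its 85 bases overlap an exon. MIR6511B2 (15134075 to 15134145) is in an intron of PKD1P6, and MIR3179-4 (18494493 to 18494576) in an intron of NOMO2.

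**Figure D1:**
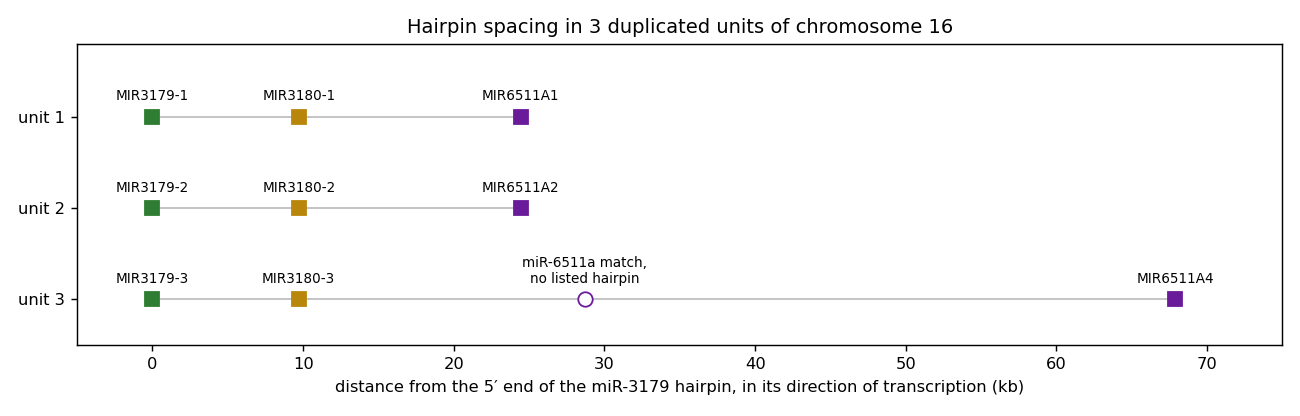
Distance in kb from the 5′ end of the miR-3179 hairpin, in its direction of transcription, of the other hairpins of 3 units on chromosome 16. Filled squares are annotated hairpins and the open circle is the miR-6511a copy in PKD1P5 with no listed hairpin; MIR3180 sits 9706 to 9720 bases away in all 3 units and the listed miR-6511a hairpin at 24429, 24429 and 67898 bases.

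Library totals, the summed counts over all mature miRNAs, were 4678102 and 5874405 in Ctrl, 242085 and 277498 in Red, 7097379 to 14874685 in Input and 2854811 to 6452759 in IP. Within m7G-RIP-seq, replicates 1 to 3 and replicates 4 and 5 parted on the second principal component of log2 normalised counts, which held 15.3% of the variance. The labels name no batch, so values of both sets of replicates are given below. The 6 epithelial marker miRNAs (the miR-200 family and miR-205-5p) were detected in every group, at a summed 174 to 1002 CPM (counts scaled to a common library total), and liver miR-122-5p was at 0 counts in all. The blood list, 3 or 4 of 5 markers above 0, summed to at most 1.89 CPM outside Red and to 8.26 and 25.2 in Red, with miR-486-5p at 0 everywhere. The muscle list (miR-1-3p and miR-133a-3p) summed to 41.3 and 43.2 CPM in Red and to 0.320 to 20.3 elsewhere. The neuronal list summed to 117 to 1045 CPM, and its marker miR-124-3p was at 0 in Ctrl. The part of other cell types in the results was not tested. The RNA was bulk RNA, in which fewer cells with a miRNA and less of it per cell cannot be told apart. The 8 members together made up 0.00172% and 0.00175% of the counts in Ctrl and 0.0430% and 0.0577% in Red, and 0.00827% to 0.0137% in Input against 0.0269% to 0.0396% in IP. miR-1244 gave 84 of the 104 and 96 of the 160 summed counts in the Red libraries and 0 in Ctrl, and the sums hold the reads of the miR-6511 5p arm under both of its entries.

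Every deposited count of every member was a whole multiple of its number of hairpins. This held in 14 of 14 libraries for each of the 8: miR-1244, miR-3179, miR-6511a-3p and miR-6511a-5p were multiples of 4, miR-3180-3p and miR-3180-5p of 3, and miR-6511b-3p and miR-6511b-5p of 2. A count of 0 is a multiple of any number, and the libraries above 0 were 10 for miR-1244, 13 for miR-3180-5p and for miR-6511a-3p, and 14 for the other 5. Among table entries above 0 in at least 5 libraries, 1 of 939 (0.106%) with a single annotated hairpin had counts that shared a divisor of 2 or more, against 29 of 74 (39.2%) with 2 or more hairpins. The 29 include the 8 members. The other such entries with the largest summed counts were miR-941 with a divisor of 5 and 5 hairpins, miR-6724-5p with 4 and 4, and miR-548o-3p, miR-4444, miR-329-3p, miR-3648, miR-4435 and miR-3690 with 2 and 2. The count divided by the hairpin number is called the count per hairpin below. It is the number of separate reads if each read was counted once at each listed hairpin.

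Pairs of entries with overlapping sequences were tied to each other. miR-6511a-5p had exactly 2 times the count of miR-6511b-5p in 14 of 14 libraries, from 4 against 2 in Ctrl replicate 1 to 420 against 210 in IP replicate 1, so the counts per hairpin were equal. miR-3180-3p had exactly 1.5 times the count of miR-3180, the ratio of 3 to 2 hairpins, in 12 of 14 libraries. The exceptions were Input replicate 2, with 261 against 179 counts and a ratio of 1.46, and Input replicate 4, with 228 against 151 and a ratio of 1.51. The 3p arms of miR-6511a and miR-6511b, parted by U9C, were equal per hairpin in 1 of 14 libraries, and their ratio ran from 0 to 4.71. The tables therefore hold 1 measurement for the pair of miR-6511 5p arms, whose seeds differ, and separate ones for the 3p arms, whose seed is the same.

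**Figure D2:**
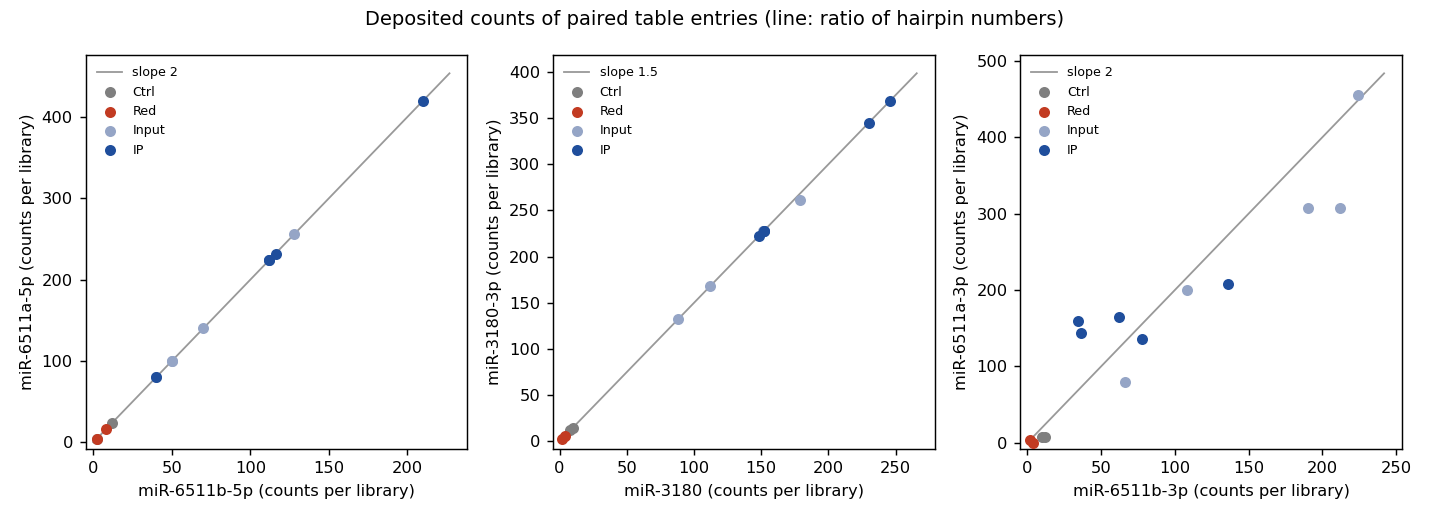
Deposited counts per library of miR-6511a-5p against miR-6511b-5p, miR-3180-3p against miR-3180 and miR-6511a-3p against miR-6511b-3p, 1 point per library and coloured by group. The grey line has the slope of the ratio of hairpin numbers; all 14 points lie on it in the first panel, 12 of 14 in the second and 1 of 14 in the third.

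Before any pulldown, in Input, miR-3179 had the highest normalised count per hairpin, 57.7 ± 17.7 (SD, n = 5). miR-6511b-3p followed at 52.3 ± 14.3, miR-3180-3p at 47.1 ± 10.1 and miR-6511a-3p at 43.7 ± 17.97, and the ranges of these 4 overlapped. The shared 5p arm of miR-6511 stood at 23.3 ± 10.8, miR-3180-5p at 11.7 ± 3.62 and miR-1244 at 1.63 ± 1.83. The range of the miR-6511 5p arm, 13.3 to 40.6, overlapped those of the 4 higher entries and that of miR-3180-5p. By contrast miR-1244, at 4.45 at most, stayed under the lowest miR-3180-5p value, 7.91. In IP the order was miR-3179 at 231 ± 125, miR-3180-3p at 127 ± 39.3, the miR-6511 5p arm at 76.0 ± 37.0, miR-6511a-3p at 55.7 ± 15.7, miR-6511b-3p at 45.7 ± 26.4, miR-1244 at 27.0 ± 19.8 and miR-3180-5p at 22.2 ± 13.98, with every neighbour in this order overlapping the next.

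In BoRed-seq, miR-1244 was present in Red and absent from Ctrl. Its deposited counts were 0 and 0 in Ctrl and 84 and 96 in Red, although the Red libraries were the smaller ones. Divided by the hairpin number these are 21 and 24 in Red, and the normalised counts were 311 and 235. Both Red libraries lay above both Ctrl libraries. With a floor of 3 counts per hairpin in each Ctrl library, the level in Red was at least 70.2-fold higher on normalised counts and at least 150-fold higher on counts per library total.

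The chromosome 16 members rested on few reads in BoRed-seq. miR-3179 had 56 and 8 counts in Ctrl and 4 and 28 in Red, or 15.5 and 2.97 against 14.8 and 68.5 normalised counts, and the groups overlapped. miR-3180-3p had 15 and 12 counts in Ctrl and 6 and 3 in Red, or 4.15 and 4.46 against 22.2 and 7.34 normalised counts, and did not overlap. miR-6511a-5p had 4 and 24 counts in Ctrl and 4 and 16 in Red, or 1.11 and 8.92 against 14.8 and 39.2 normalised counts, also without overlap, and miR-6511b-5p carried the same reads. In counts per hairpin, the Red libraries held 8 for miR-3179, 5 for the miR-6511 5p arm, 3 for miR-3180-3p, 3 for miR-6511b-3p and 1 each for miR-3180-5p and miR-6511a-3p in all.

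The ratio of summed counts per hairpin, scaled by size factors, was 4.64 for miR-3179 with an exact 95% interval of 1.72 to 11.5. It was 6.63 for the miR-6511 5p arm (1.66 to 24.3) and 3.10 for miR-3180-3p (0.539 to 12.4). For miR-6511b-3p it was 2.53 (0.454 to 9.59), and for miR-3180-5p and miR-6511a-3p 2.32 (0.0471 to 23.5). These intervals cover counting error alone and leave out the spread between libraries. The deposited counts of the remaining entries were also few. miR-6511a-3p had 8 and 8 counts in Ctrl and 0 and 4 in Red, miR-6511b-3p 10 and 12 against 4 and 2, and miR-3180-5p 6 and 6 against 0 and 3.

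Of the 8 members, 5 passed the filter of 10 counts in at least 2 libraries, and 3 of those were called higher in Red, namely miR-1244, miR-3179 and miR-6511a-5p, with 0 called lower. Among all miRNAs, 32.2% of the 400 miRNAs tested were called higher and 27.2% lower, and the members were chosen on this contrast. The fitted log2 enrichments were 2.19 ± 0.97 (SE, n = 2 against 2) for miR-3179, 1.73 ± 1.15 for miR-3180-3p, 2.47 ± 1.11 for miR-6511a-5p and 1.40 ± 1.34 for miR-6511b-3p. miR-6511b-5p did not enter the fit, with the same reads as miR-6511a-5p, because its counts are multiples of 2 rather than 4. With each count divided by its divisor, miR-1244 was the only member left past the filter. The SEs above take deposited counts as separate reads. With divided counts and no filter, a setting chosen after seeing the data, the SEs were larger. The log2 enrichments were then 1.75 ± 1.68 for miR-3179, 1.25 ± 2.15 for miR-3180-3p, 1.96 ± 2.05 for miR-6511a-5p and 0.91 ± 2.09 for miR-6511b-3p. Of the 5 members past the filter, 4 did not overlap between Red and Ctrl, where 81.5% of the 453 miRNAs past the filter did not, and nothing is read from this share.

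1 library decided several of these values. Without Ctrl replicate 2 the log2 enrichment of miR-3179 was 0.84 and not called, and without Ctrl replicate 1 that of miR-6511a-5p was 0.83 and not called. Without Red replicate 1 they were 3.23 and 3.39, both called, and without Red replicate 2 neither passed the filter. miR-1244 passed the filter only with both Red libraries, since Ctrl holds none of it. Scaling by total counts moved the median log2 value over all miRNAs past the filter from -0.32 to 0.77. The members moved with it, to 3.39 for miR-3179, 2.79 for miR-3180-3p and 3.70 for miR-6511a-5p.

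In m7G-RIP-seq all 8 members passed the filter of 10 counts in at least 5 libraries. With each count divided by its divisor 7 passed it, and miR-1244 did not. miR-1244 had counts of 0, 28, 12, 0 and 12 in Input replicates 1 to 5 and of 160, 132, 48, 24 and 32 in IP. The normalised counts were 0 to 17.8 in Input and 24.3 to 211 in IP, so the groups did not overlap. The fitted log2 enrichment was 4.03 ± 0.90 (SE, n = 5 against 5), and it was 4.82 without Input replicate 2, the Input library with the most counts of it.

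miR-3179 had counts of 168, 312, 220, 480 and 588 in Input and 392, 732, 172, 1484 and 1060 in IP. On the normalised scale these were 190, 198, 154, 298 and 313 against 517, 901, 362, 1504 and 1345, with no overlap and a log2 enrichment of 2.00 ± 0.40. Replicates 4 and 5 were the highest in both groups. miR-3180-3p had normalised counts of 149, 166, 160, 142 and 89.6 in Input and 487, 425, 480, 225 and 289 in IP, again without overlap, and a log2 enrichment of 1.43 ± 0.29. Here the IP libraries of replicates 4 and 5 were the lowest.

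The opposite arm, miR-3180-5p, varied between the replicate sets. Its normalised counts were 23.7, 38.1, 48.3, 41.0 and 23.99 in Input and 43.5, 25.8, 44.3, 128 and 91.4 in IP, and the groups overlapped. IP replicates 4 and 5 were above all Input libraries and the other 3 IP libraries were within their range. The log2 enrichment of 0.93 ± 0.47 was not called, and it was called without IP replicate 1 or without IP replicate 2, at up to 1.14, with scaling by total counts, at 1.26, and in replicates 4 and 5 alone, at 1.68.

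The miR-6511 5p arm had normalised counts, as miR-6511a-5p, of 90.4, 163, 98.0, 62.1 and 53.3 in Input and 554, 285, 169, 227 and 284 in IP. The lowest IP library, replicate 3, was just above the highest Input library, replicate 2. The log2 enrichment was 1.71 ± 0.40 as miR-6511a-5p and 1.71 ± 0.41 as miR-6511b-5p.

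The 3p arms of the same hairpins overlapped between the groups. miR-6511a-3p had normalised counts of 90.4, 196, 140, 283 and 164 in Input and 274, 167, 303, 166 and 203 in IP, with a log2 enrichment of 0.34 ± 0.33. miR-6511b-3p had 74.6, 121, 75.6, 139 and 113 in Input and 179, 96.0, 75.9, 62.8 and 43.1 in IP, with a log2 value of -0.20 ± 0.40. Neither was called. The sign for miR-6511b-3p turned without IP replicate 5, at 0.02, and with scaling by total counts, at 0.13, a scaling that also moved the median over all miRNAs from 0.02 to 0.38.

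**Figure D3:**
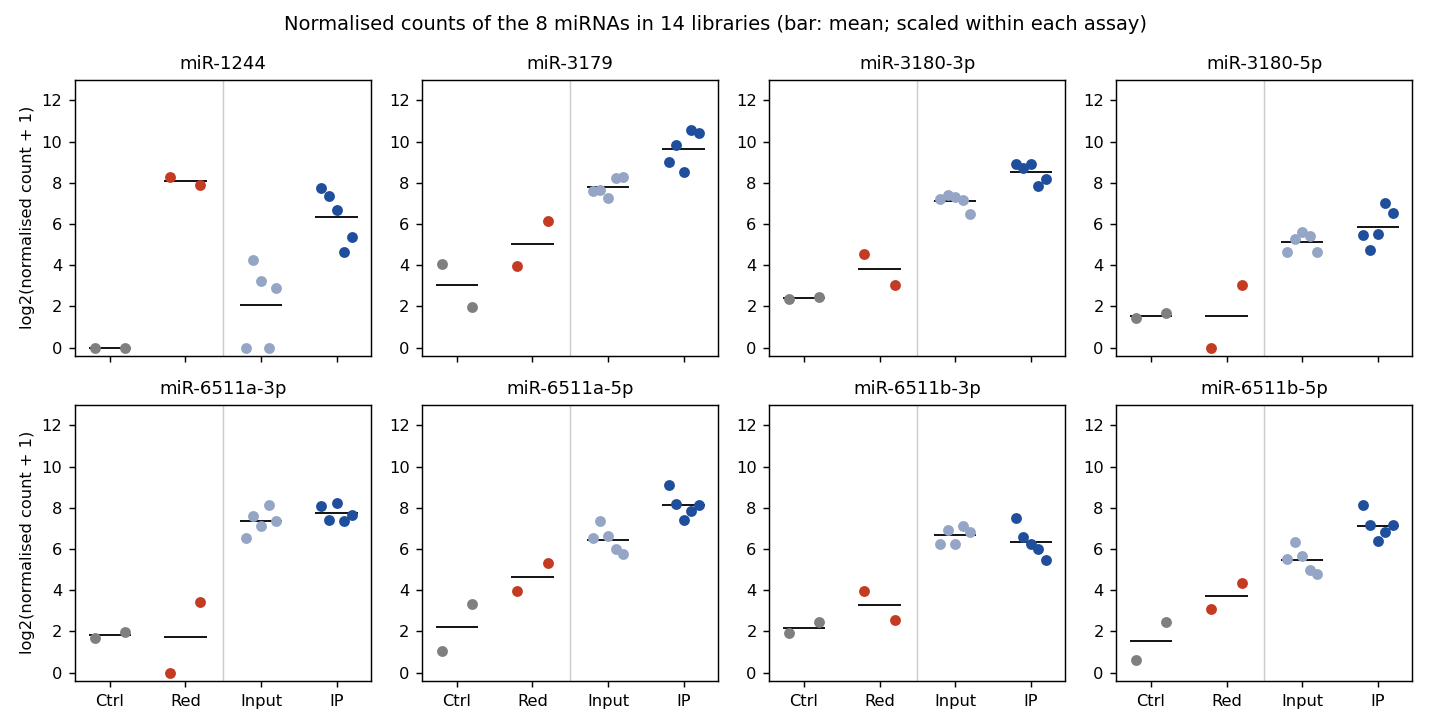
log2(normalised count + 1) of the 8 miRNAs, 1 point per library, in Ctrl and Red (BoRed-seq) and Input and IP (m7G-RIP-seq), with the mean of each group as a bar. Counts were scaled within each assay, so levels are not compared across the grey line; miR-1244 is at 0 in both Ctrl libraries, and the Input and IP points of miR-3180-5p, miR-6511a-3p and miR-6511b-3p overlap.

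Of the 8 members, 5 were called higher in IP, which are miR-1244, miR-3179, miR-3180-3p, miR-6511a-5p and miR-6511b-5p, and 0 were called lower. Among all miRNAs, 27.3% of 670 miRNAs were called higher and 29.9% lower. The same 5 members were those with no overlap between IP and Input, against 42.4% of all miRNAs tested. Since the members were listed for this contrast and the 5p arms of miR-6511 are 1 set of reads, nothing is read from these shares. The median log2 enrichment of the 8 members was 1.57 and that of all miRNAs tested 0.02. Of the 5 called members, 4 carry GGGG in the mature sequence, among them both entries of the miR-6511 5p reads. The median of the 8 members holds those reads under both entries too, and nothing is read from it. Among tested miRNAs whose mature sequence was found, 49 of 74 with GGGG were called higher in IP, with a median log2 enrichment of 1.47. Without GGGG it was 122 of 528, with a median of -0.12. A further 68 tested miRNAs had no sequence found, and 12 of them were called higher. In BoRed-seq the counts were 24 of 35 with GGGG, 90 of 320 without it and 15 of 45 with no sequence found. miR-1244, with no GGGG, was called higher in both assays.

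Replicates 1 to 3 and replicates 4 and 5, fitted apart, gave the same sign for 6 of the 8 members. The log2 enrichments in replicates 1 to 3 and in 4 and 5 were 4.10 and 3.23 for miR-1244, 1.70 and 2.14 for miR-3179, 1.53 and 1.07 for miR-3180-3p and 1.49 and 2.06 for miR-6511a-5p. For miR-3180-5p they were 0.01, not called, and 1.68, called. Those of the 3p arms of miR-6511 changed sign, from 0.78 to -0.36 for miR-6511a-3p and from 0.35 to -1.33 for miR-6511b-3p, which was called lower in replicates 4 and 5 alone. The difference between the replicate sets was not tested.

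**Figure D4:**
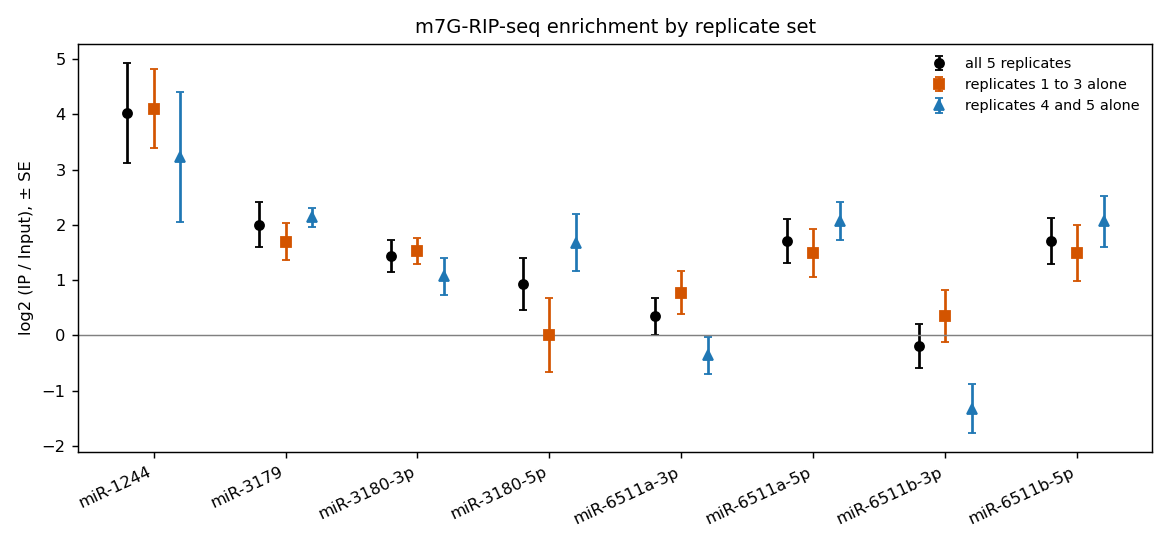
log2 enrichment in IP over Input with its SE for the 8 miRNAs, from all 5 replicates (black), replicates 1 to 3 (orange) and replicates 4 and 5 (blue). The 5 members called in the full set are above 0 in all 3 fits, and the 3p arms of miR-6511 are above 0 in replicates 1 to 3 and below 0 in replicates 4 and 5.

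The arms of 1 hairpin family can be set side by side within a library, where the depth is shared. The 5p arm made up 27.4%, 27.1%, 25.2%, 9.96% and 12.0% of the miR-6511 counts per hairpin (the shared 5p arm and both 3p arms) in Input replicates 1 to 5, and 46.7%, 44.3%, 27.0%, 43.8% and 49.6% in IP. The means were 20.3% ± 8.60 and 42.3% ± 8.82 (SD, n = 5). IP was above the Input of the same number in 5 of 5 replicates, but IP replicate 3, with a 95% Wilson interval of 18.2% to 38.1%, lay within the Input range. In replicates 1 to 3 Input was 25.2% to 27.4% and IP 27.0% to 46.7%, and in replicates 4 and 5 Input was 9.96% and 12.0% and IP 43.8% and 49.6%. In BoRed-seq the 5p share was 12.5% and 42.9% in Ctrl and 33.3% and 66.7% in Red, with an interval of 6.15% to 79.2% in Red replicate 1, so a difference was not detectable at this depth.

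**Figure D5:**
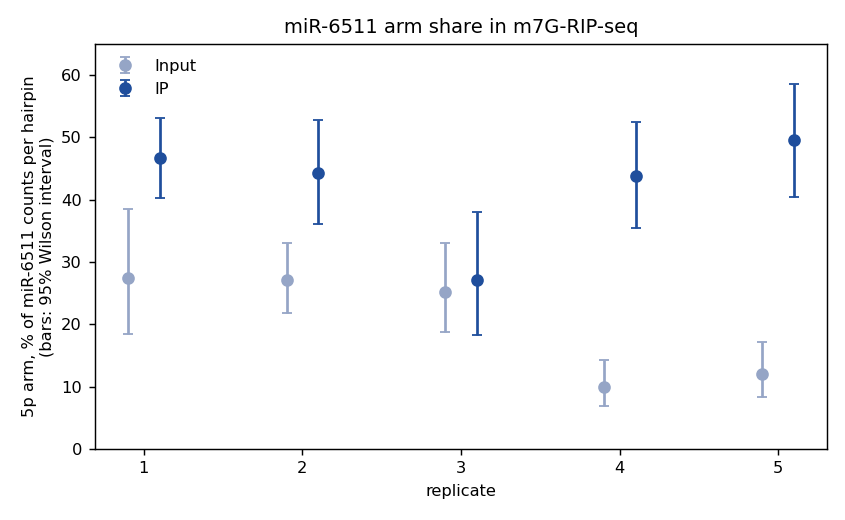
Share of the 5p arm in the miR-6511 counts per hairpin, in percent, for Input (light) and IP (dark) of m7G-RIP-seq replicates 1 to 5, with 95% Wilson intervals for counting error. IP is above the Input of the same number throughout, by the smallest margin in replicate 3, at 25.2% and 27.0%. IP replicate 3 lies within the Input range, and the numbers are not known to pair libraries.

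miR-6511b made up 55.4% ± 4.99 of the 3p counts per hairpin of both families in Input and 43.3% ± 11.9 in IP (SD, n = 5), with ranges of 49.6% to 62.3% and 29.8% to 56.7% that overlapped. For miR-3180 the 5p arm was the minor one. It made up 13.7% to 23.2% of the miR-3180-5p and miR-3180-3p counts per hairpin in Input, 5.74% to 8.43% in IP replicates 1 to 3, and 36.2% and 24.0% in IP replicates 4 and 5.

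By the pattern of log2(normalised count + 1) over the 10 m7G-RIP-seq libraries, among 661 other miRNAs, miR-1244 was most like miR-942-3p (Pearson r = 0.92), miR-3182 (0.90) and miR-3652 (0.90). miR-3179 was most like miR-432-5p (0.96), miR-505-5p (0.95) and miR-196a-5p (0.95), and miR-3180-3p most like miR-320b, miR-320a and miR-3168 (0.97 each). miR-6511a-5p was most like miR-4660 (0.95), miR-1292-5p (0.94) and miR-219a-1-3p (0.93), and miR-6511a-3p most like miR-2278 (0.90), miR-3605-5p (0.75) and miR-1306-5p (0.73). Between members of the chromosome 16 units, r was 0.50 for miR-3179 with miR-3180-3p, 0.86 for miR-3180-3p with miR-6511a-5p, 0.62 for miR-3179 with miR-6511a-5p and 0.62 for miR-3179 with miR-3180-5p. It was 0.31 for the arms miR-6511a-3p and miR-6511a-5p, 0.24 for the arms miR-3180-3p and miR-3180-5p, 0.22 for miR-3179 with miR-6511a-3p and 0.25 for miR-3180-5p with miR-6511a-3p. The remaining pairs of these 5 entries stood at 0.48 for miR-3180-3p with miR-6511a-3p and 0.41 for miR-3180-5p with miR-6511a-5p. These are descriptions over libraries that share the contrast and the replicate sets, and no p is given.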

How the data were processed

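The deposited values are raw counts per mature miRNA, 1 table per assay. The authors trimmed reads with Trimmomatic, aligned them to hg38 with STAR per the study's methods (the processing notes in the labels name Bowtie2), let a read fit several loci, and counted over mature miRNAs of miRBase with featureCounts. Versions and the setting for reads that fit several features are not given in the sources used here. The 8 members and all lists were chosen with earlier results of these data known. The text names the members, miR-3180, the 8 other multi-hairpin miRNAs with a shared divisor and the largest summed counts, the 3 most similar miRNAs for each of 5 members, and miRNAs of the marker lists.

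Hairpins were taken from the GENCODE annotation and mature sequences were searched in the hg38 genome. Enrichment was fitted over whole tables in R 4.3.3 by DESeq2 (version 1.42.0) and its Wald test, which the study's methods name, with median-of-ratios scaling and calls at a Benjamini-Hochberg adjusted p under 0.05, and with edgeR 4.0.16 as an alternative. A miRNA entered with 10 counts or more in 2 (BoRed-seq) or 5 (m7G-RIP-seq) libraries or more. The script was tested on simulated data. Same-numbered Input and IP libraries deviated together (r = 0.18, 0.15, 0.15, 0.31 and 0.39 over 5 pairs). Input and IP libraries also parted by the same replicate sets, and libraries of different numbers were not compared. Whether the numbers pair single libraries was therefore not tested. The labels do not say whether replicates came from separate cultures, so the spread may be technical. There were 0 columns of no sample. Molecular identifiers are not in these tables. Intervals cover counting error alone, and the floor covers that of Ctrl only.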

Additional observations from a re-analysis of the deposited data

Results flagged for a closer look

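Among 22 sets of 5 libraries examined (Input and IP, for the 8 members and 3 arm shares), 1 held a library far from the others. The miR-6511 5p share in IP replicate 3 was 27.0%, where the other 4 IP libraries were at 43.8% to 49.6%. Chance alone would mark about 1 in 20 such sets. IP replicate 3 also had the smallest library total of the IP group, 2854811 counts.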

How the results depend on the processing

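In BoRed-seq 3 members were called higher, and this count was 1 with TMM scaling, 1 with no count filter, 1 with counts divided by their common divisor, and 1 with divided counts and no filter, an alternative chosen after seeing the data. In these 4 settings miR-1244 was the member that remained. With divided counts under the filter it was the only member that entered. It passes the filter through its Red libraries alone, so its remaining there is no separate support. The count of called members was 0 to 2 when a library was left out, at 0 without Red replicate 2. With 10 counts asked of every library no member entered. With the replicate block it was 2, without miR-3179, but the same numbers in Ctrl and Red are not known to pair libraries (r = 0.11 over 2 pairs). It was 4 with scaling by total counts, where 175 of 391 miRNAs tested were called higher. With edgeR it was 3, where 128 of 453 were. Over all miRNAs tested, 129 of 400 were called higher with the main settings and 120 of 453 with TMM scaling. Nothing about the members is read from these changes. In m7G-RIP-seq 5 members were called, and 5 with the replicate block, which changed no other call. The numbers in Input and IP are not known to pair libraries either. The count was 4 to 7 under every other alternative and 5 to 6 with a library left out. The 7 were in replicates 4 and 5 alone, with 6 called higher and miR-6511b-3p called lower. In that fit 186 of 772 miRNAs tested were called higher and 243 lower. miR-1244 did not enter with divided counts under the filter, or with 10 counts asked of every library. No enrichment called with the main settings changed sign under any alternative in which its member was fitted. Where a member did not enter a fit there was no sign to compare. Every Red value, that of miR-1244 included, rests on 2 libraries of at most 277498 counts.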
